A study of Mus musculus with 4 samples.

Results

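Wnt4 and 6 further genes of the ovarian side of gonadal sex determination (Rspo1, Foxl2, Runx1, Irx3, Fst and Bmp2) were followed in Sertoli cells of mouse testicular organoids (TOs). These 7 members were matched by symbol among 32285 genes, each to a single row. The data were single-cell RNA sequencing (10x Genomics, 3′ chemistry) of unsorted, enzymatically dissociated cells in 4 libraries, 2 from TOs and 2 from mouse testes. The TOs had been reconstituted from single cells of the testes of neonatal (6-day-old) ICR mice, embedded in extracellular matrix and cultured at an air–liquid interface. Their medium held follicle-stimulating hormone, testosterone and antioxidants. The testes came from 28-day-old mice. The series and the methods give the TOs as 28 days old, a time counted in culture and not from birth. The dissociation protocol in the labels names day 21 TOs instead. The organoids came from 2 independent batches and the testes are given as 2 biological replicates. Which batch each TO library came from and how many animals were pooled is not stated, so p-values measure the spread between these libraries, which may be partly technical. No transgene, allele or sorted fraction separated the groups.

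WNT4 is a secreted WNT ligand, and R-spondin 1 (Rspo1) is a secreted protein that raises the response of a cell to WNT ligands. In the fetal ovary both act through β-catenin, and follistatin (Fst), an extracellular inhibitor of activins, lies downstream of this signal. FOXL2 is a forkhead transcription factor that maintains granulosa cells, the supporting cells of the ovary and the counterpart of Sertoli cells, and RUNX1 and IRX3 are transcription factors of fetal pregranulosa cells. BMP2 is a ligand of the bone morphogenetic protein family that is made in the fetal ovary. In the testis, SOX9 and DMRT1 keep Sertoli cells on the male side. Wnt4 had been chosen by its level, much higher in TO than in testis Sertoli cells in these same libraries, so its level there is described below and not tested. The other members were chosen by their role, but they and the gene lists below were set with earlier results of these data known. Their tests are therefore not fully independent of the choice. The question was whether the other members followed Wnt4.

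In the GRCm38 genome (GENCODE vM21), Wnt4 lies on the plus strand at chr4:137277489-137299726 and Rspo1 on the same chromosome at chr4:124986430-125009099. Fst lies on the minus strand at chr13:114452290-114458951, Foxl2 on the plus strand at chr9:98955288-98958543, and Runx1 on the minus strand at chr16:92601466-92826149. Irx3 is at chr8:91798525-91802067 (minus strand) and Bmp2 at chr2:133552159-133562885 (plus strand). A gene on the opposite strand overlaps each of Rspo1, Foxl2, Runx1, Irx3 and Fst, and none overlaps Wnt4 or Bmp2.

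After removal of doublets and low-quality barcodes, 9802 and 8713 TO cells and 9867 and 9516 testis cells remained, and between 30 and 55 barcodes were shared by any pair of libraries. Sertoli-like cells numbered 1502 and 729 in the TO libraries and 469 and 143 in the testis libraries, or 2843 of 37898 cells. Of the 6 Sertoli markers, 5 (Sox9, Wt1, Cldn11, Rhox8 and Aard) were found in at least 10% of Sertoli-like cells of both conditions. Amh, the anti-Müllerian hormone of immature Sertoli cells, was not. The Sertoli-like cells held 14042412 and 7379800 UMIs (unique molecular identifiers, each standing for a captured RNA molecule) in TOs, against 2582159 and 1130347 in testes. Testis replicate 2 stood apart, because 72.0% of its Sertoli-like cells fell in a cluster seen in no other library and led by Aqp8, Rhox5 and Tsx among others. A further 106 cells of that library, led by Rhox5 and Tsx, stayed unnamed and outside the counts below. Summed markers of spermatids reached 1838 and 4236 CPM (a gene's share of all UMIs of the summed cells, scaled to 1000000) in testis Sertoli-like sums, 21.9% and 9.47% of the level in spermatids, against 0.498 and 1.90 CPM in TOs. Summed markers of spermatogonia in the same testis sums were at 21.6% and 13.9% of their own level, and those of spermatocytes at 18.0% and 15.5%, against 0.938% to 2.97% in TOs. Zbtb16, Stra8 and Gfra1 of the spermatogonia list were at 0 in testis replicate 2. In testis spermatid-like cells Runx1 stood at 2.75 and 1.20 CPM and no other member exceeded 0.588 CPM. Testis spermatogonia-like cells held more, with Fst at 7.90 and 21.9 CPM and Runx1 at 4.74 and 7.06 CPM. The part of germ-cell RNA in the testis Sertoli-like values was not tested.

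Wnt4 stood at 100.8 and 73.6 CPM in Sertoli-like cells of the TO libraries (replicate 1 first, here and below). In the testis libraries it stood at 1.55 and 0 CPM. These levels rested on 1416 and 543 UMIs in TOs and on 4 UMIs in testes, all of them in testis replicate 1, so the groups were far from overlapping. Over the summed UMIs the ratio was 84.9 (95% counting interval 33.1–312, which covers counting error only). Within the largest Sertoli-like cluster, which all 4 libraries share, the levels were 103 and 75.2 CPM in TOs and 1.77 and 0 CPM in testes.

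A Wnt4 UMI was found in a minority of TO Sertoli-like cells, a share that depends on depth and does not show that the other cells lacked Wnt4. It was found in 35.9% of those cells in TO replicate 1 (95% exact Clopper-Pearson interval 33.5–38.4%) and in 27.8% in TO replicate 2 (24.6–31.3%), against 0.853% in testis replicate 1 and 0 of 143 cells in testis replicate 2, which allows a share of up to 2.10% of cells with a UMI by the floor of 3 cells (exact upper limit 2.55%). Median depths were 10066 and 11340 UMIs per cell in TOs and 6118 and 8998 in testes. After each cell was thinned to 1500 UMIs the shares were 12.4%, 7.23%, 0.213% and 0%, with 23 and 10 shallower TO cells left out. In the same TO libraries, 0 of 239 and 0 of 250 thinned spermatocyte-like cells held a Wnt4 UMI, which allows up to 1.26% and 1.20% by the same floor (exact upper limits 1.53% and 1.46%). The highest count in a single cell was 28 UMIs, and the tenth of cells with most Wnt4 held 56.4% and 67.04% of the Wnt4 UMIs of the TO libraries.

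Among the other members, Fst was the one called higher in TO Sertoli-like cells. It reached 36.6 and 46.3 CPM in TO Sertoli-like cells, against 4.65 and 3.54 CPM in testis Sertoli-like cells (514, 342, 12 and 4 UMIs), without overlap. The log2 fold change was 3.37 (standard error 0.34, 2 against 2 libraries) with an adjusted p of 0.000363 by edgeR's quasi-likelihood test over 14230 genes. A gene was called when its adjusted p was under 0.01 and its log2 fold change past 1 in either direction, and 7.88% of all genes tested were called higher in TOs and 18.6% lower (26.5% in either direction). Of the 6 members other than Wnt4, 1 (Fst) was called, 2 (Foxl2 and Runx1) were tested and not called, and 3 (Rspo1, Irx3 and Bmp2) had too few UMIs to pass the filter on low counts. Wnt4, Runx1 and Foxl2 passed that filter only through the TO libraries, so the tests of Foxl2 and Runx1 in Sertoli-like cells are given as a description of these counts and not as support for a rise. Without testis replicate 2 the Fst change was 3.25 and was called (adjusted p = 0.00113, edgeR). In the largest Sertoli-like cluster Fst stood at 37.5 and 48.2 CPM in TOs and at 5.32 and 10.3 CPM in testes, the last from a single UMI.

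Within TO Sertoli-like cells, Fst was higher in cells with a Wnt4 UMI than in cells without. The levels were 55.4 against 23.1 CPM in TO replicate 1 and 62.9 against 37.9 CPM in TO replicate 2. Cells with a Wnt4 UMI were also deeper, with medians of 11156 against 9359 UMIs and 12830 against 10816.5 UMIs, and the part of depth in the difference was not tested. Runx1 had the same order in both libraries, at 14.7 against 10.1 CPM and 8.01 against 5.73 CPM, and so did Rspo1, at 1.19 against 0.856 CPM and 2.80 against 1.84 CPM from 7 to 9 UMIs each. Foxl2 showed no such ordering in both libraries, at 5.29 against 2.81 CPM in TO replicate 1 and 2.40 against 2.46 CPM in TO replicate 2.

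Foxl2 was detected in TO Sertoli-like cells at 3.85 and 2.44 CPM (54 and 18 UMIs) and had no UMI in either testis library's Sertoli-like cells. Over the summed UMIs it was at least 4.16-fold higher in TOs, taking 3 UMIs over both testis libraries as the floor. The difference was not called (adjusted p = 0.0127, edgeR). It was called without the filter on low counts (adjusted p = 0.000192), where 8.86% of genes were called higher, whereas without doublet removal the log2 fold change fell to 0.78 (adjusted p = 0.659). A Foxl2 UMI was found in 2.40% and 1.65% of TO Sertoli-like cells. After thinning, the shares were 0.406% and 0.695%, both below the floors of 1.26% and 1.20% for 0 thinned spermatocyte-like cells with a UMI in the same libraries, so that the shares alone do not separate Foxl2 from background RNA. On the CPM scale, macrophages of the same TO libraries held 0.504 and 0.224 CPM from a single UMI each.

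Runx1 stood at 12.035 and 6.50 CPM in TO Sertoli-like cells and at 1.94 and 0 CPM in testis Sertoli-like cells, with no overlap. Its log2 fold change of 2.91 (standard error 0.76, n = 2 against 2) was not called (adjusted p = 0.0180, edgeR). It was called without the filter on low counts (adjusted p = 5.95e-06, edgeR). Without TO replicate 2 the change was 3.33 and was called (adjusted p = 0.000478, edgeR), and without testis replicate 2 it was 2.36 and was not (adjusted p = 0.0292, edgeR). All 5 testis UMIs came from testis replicate 1.

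Rspo1, Irx3 and Bmp2 were near the detection limit in Sertoli-like cells. Rspo1 had 14 and 16 UMIs in TOs (0.997 and 2.17 CPM) and none in testes, which placed it at least 1.73-fold higher in TOs. Irx3 had 3 UMIs in each TO library and Bmp2 had 3 and 2, with none in testes, so that no fold is given for either. At these counts a low level in testis Sertoli-like cells could not be told from 0.

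Wnt4 was not particular to Sertoli-like cells of the TOs. Among the named cell types of TOs the mean level was highest in Sertoli-like cells at 87.2 ± 19.3 CPM (SD, n = 2), followed by stromal-like cells at 67.2 ± 5.33 CPM, Leydig-like cells at 56.6 ± 29.5 CPM and myoid-like cells at 21.9 ± 2.49 CPM. The Leydig-like values overlapped those of both Sertoli-like and stromal-like cells. The latter types did not overlap each other, although their means differed by about the standard deviation of the Sertoli-like values, and both myoid-like values lay below all of these. Macrophage-like cells, spermatogonia-like cells and spermatocyte-like cells held means of 2.20 to 3.42 CPM. In testes the order was different, with myoid-like cells highest at 8.97 ± 2.80 CPM, stromal-like cells at 6.42 ± 1.98 CPM and Leydig-like cells at 5.02 ± 5.85 CPM, whose spreads overlapped, and Sertoli-like cells at 0.775 ± 1.10 CPM.

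Stromal-like cells, which carry the collagen and decorin genes of interstitial fibroblasts, held 63.4 and 70.9 CPM of Wnt4 in TOs and 5.02 and 7.82 CPM in testes. The log2 fold change was 3.50 (standard error 0.30) and was called (adjusted p = 0.000454, edgeR, n = 2 against 2), in a cell type where 1.99% of genes tested were called higher in TOs. In the androgen-producing Leydig-like cells the levels were 35.7 and 77.4 CPM against 9.15 and 0.882 CPM. That difference of 3.42 was not called over all 4 libraries (adjusted p = 0.0155, edgeR) and was called without TO replicate 1 (adjusted p = 0.000411) and without testis replicate 1 (adjusted p = 0.00140). In the contractile myoid-like cells Wnt4 stood at 20.1 and 23.6 CPM against 6.99 and 10.95 CPM, a change of 1.28 that was not called (adjusted p = 0.0204, edgeR) except without TO replicate 1 (1.49, adjusted p = 0.00715), in a cell type where 4.11% of genes were called higher.

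Outside Sertoli-like cells Fst was not called in any of the 3 types in which it was tested. In stromal-like cells it was at 20.3 and 31.8 CPM in TOs and at 71.0 and 79.8 CPM in testes, a log2 fold change of -1.41 (standard error 0.29) that was not called (adjusted p = 0.0123, edgeR) except without TO replicate 2 (-1.90, adjusted p = 0.000134). The change in Sertoli-like cells exceeded that in stromal-like cells by 4.56 on the log2 scale (standard error 0.36, adjusted p = 6.53e-06, edgeR interaction term with the library as a term), and 7.98% of genes passed this test. Sertoli-like cells held more Fst than stromal-like cells in both TO libraries and less in both testis libraries. Against Leydig-like and myoid-like cells the difference in change was -0.84 (standard error 1.24) and 2.06 (standard error 0.93), neither of which was called over all 4 libraries, where 6.71% and 11.5% of genes were. Without TO replicate 1 the difference against myoid-like cells was called (3.04, adjusted p = 0.00560, edgeR). In Leydig-like cells Fst stood at 2.96 and 2.46 CPM in TOs, against 0 and 0.294 CPM in testes (a single UMI), and in myoid-like cells at 8.26 and 3.20 CPM against 2.69 and 1.37 CPM. Both had the same sign as in Sertoli-like cells, with log2 fold changes of 4.06 and 1.41 (adjusted p = 0.0271 and 0.156, edgeR). In Leydig-like cells Fst passed the filter on low counts only through the TO libraries, so its test there is a description of the counts. Spermatogonia-like cells also held Fst, at 31.5 and 17.8 CPM in TOs and 7.90 and 21.9 CPM in testes, so that these groups overlapped.

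Foxl2 was spread thinly over the somatic cells of the TOs. Its TO levels were 2.58 and 3.04 CPM in Leydig-like cells, 2.39 and 4.24 CPM in myoid-like cells, and 1.38 and 1.44 CPM in stromal-like cells, against 0 UMIs in all of these cells of the testes. Sertoli-like, myoid-like and Leydig-like cells did not differ in Foxl2 beyond their spread between the TO libraries. In Leydig-like cells Foxl2 was at least 6.57-fold higher in TOs and in myoid-like cells at least 3.7-fold. Neither was called (adjusted p = 0.0132 and 0.0180, edgeR). In both types Foxl2 passed the filter on low counts only through the TO libraries. These tests are therefore a description of the counts and not support for a rise. Over all kept testis cells a single Foxl2 UMI was counted, in testis replicate 2.

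Runx1 was highest in macrophage-like cells, at 694 and 627 CPM in TO macrophage-like cells and 426 and 327 CPM in those of testes. RUNX1 is a well-known regulator of blood cells. The macrophage change of 1.02 was not called (adjusted p = 0.0168, edgeR), and the Sertoli change exceeded it by 2.03 (standard error 0.61, adjusted p = 0.00908, edgeR interaction term), a test that 9.45% of genes passed. In that joint test Runx1 passed the filter through macrophage-like cells of both conditions, but its testis Sertoli level rested on 5 and 0 UMIs. That difference was lost without TO replicate 1 (1.56, adjusted p = 0.111) and without testis replicate 2 (1.12, adjusted p = 0.427). Summed macrophage markers in Sertoli-like cells were between 0.0233% and 0.314% of their level in macrophage-like cells in all 4 libraries, and their part in the Sertoli values of Runx1 was not tested.

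Bmp2 and Rspo1 were higher in other cells than in Sertoli-like cells. In macrophage-like cells Bmp2 stood at 21.2 and 8.28 CPM in TOs and 4.17 and 12.8 CPM in testes. Testis endothelial-like cells held 13.7 and 42.3 CPM of it. Myoid-like cells held less Bmp2 in TOs (1.29 and 0.952 against 3.76 and 6.16 CPM, not called). So did stromal-like cells (1.21 and 0.915 against 2.87 and 1.56 CPM, not called). Bmp2 stood at 13.1 and 15.4 CPM in Leydig-like cells of TOs against 3.33 and 1.47 CPM in testes, a log2 fold change of 2.49 (standard error 0.48, adjusted p = 0.00821, edgeR) that was called, where 2.03% of genes were called higher. It was not called without TO replicate 2 (adjusted p = 0.0257) or without testis replicate 2 (adjusted p = 0.0262). Rspo1 was highest among the named types in stromal-like cells, at 5.43 and 6.67 CPM in TOs and 19.4 and 19.6 CPM in testes, and its change of -1.57 was not called (adjusted p = 0.0180, edgeR) except without TO replicate 2 (-1.85, adjusted p = 0.00906). Of the remaining member, Irx3, testis endothelial-like cells held 14 and 13 UMIs, whereas all TO cells kept held 7 and 6. Of the 7 members, 2 pairs of member and cell type were called outside Sertoli-like cells, namely Wnt4 in stromal-like and Bmp2 in Leydig-like cells. In the somatic types tested there, 14.2% (Leydig-like) to 24.8% (myoid-like) of all genes were called in either direction. The count of pairs is therefore not read as a result about the members.

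**Figure D1:**
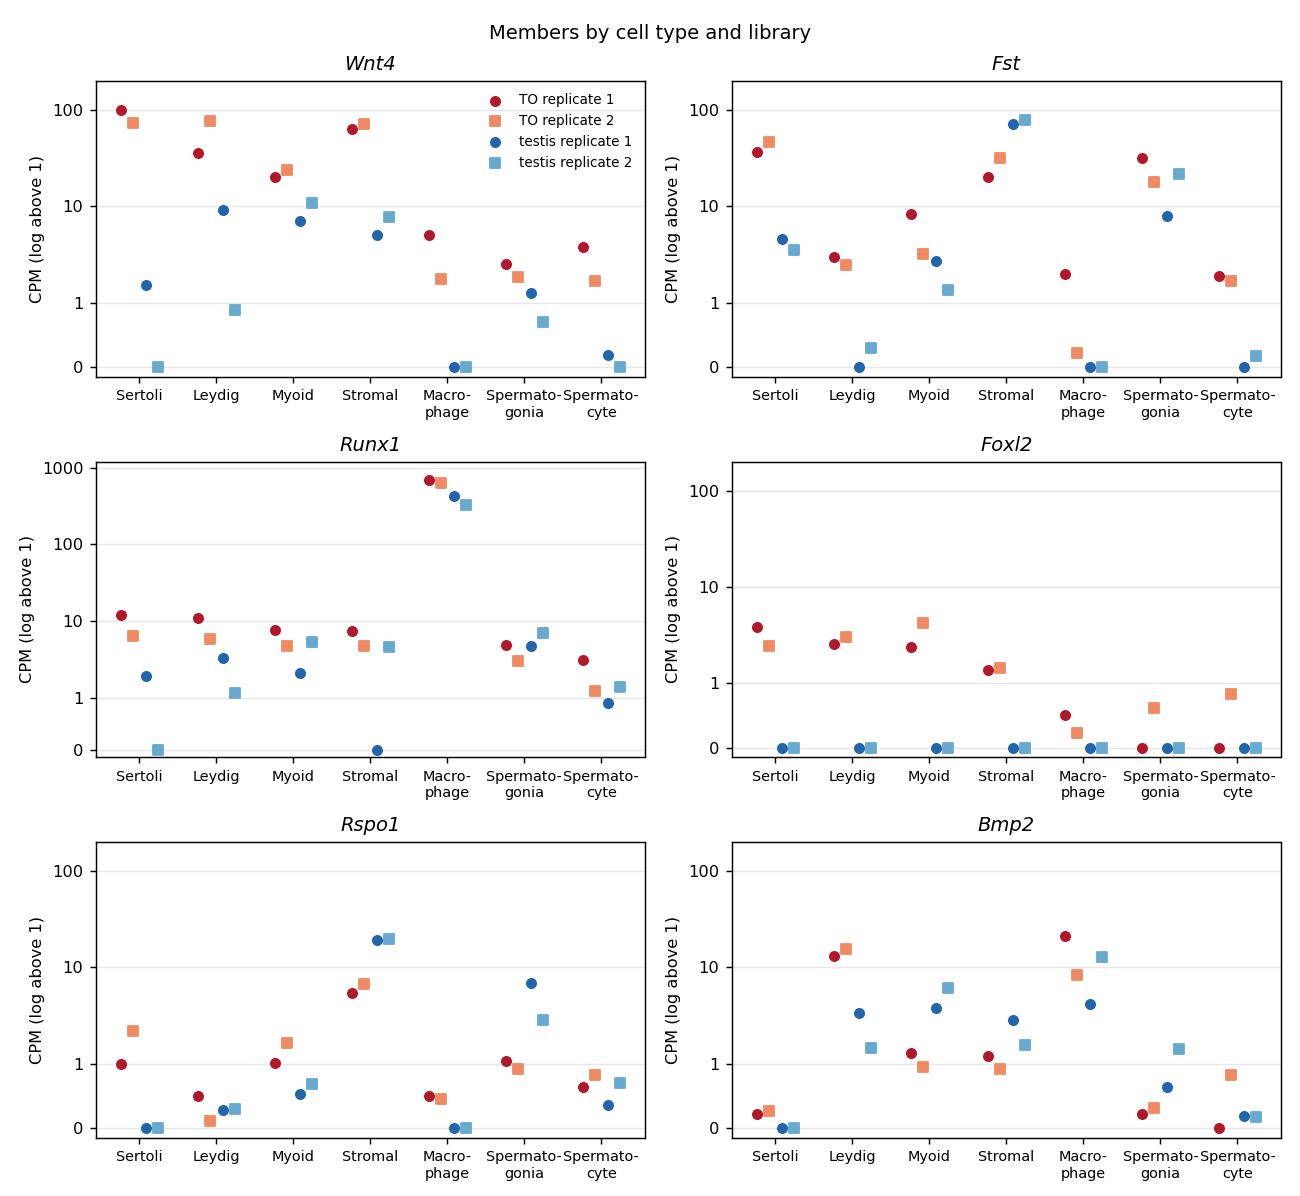
Levels of 6 members in 7 cell types, as CPM on a log scale above 1 and a linear scale below, with a point for the summed cells of each library (red and orange, TOs; blue, testes). Wnt4 lies at 63.4 and 70.9 CPM in stromal-like cells of TOs against 5.02 and 7.82 CPM in testes, Fst lies above its testis values in Sertoli-like cells of TOs and below them in stromal-like cells (not called there), and Runx1 is highest in macrophage-like cells at 327 to 694 CPM.

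The clusters inside the TO cell types differed in these genes. These clusters were singled out after their values were seen, and a cluster against the rest is given as a description. A Leydig-like cluster of 287 and 299 TO cells, with 6 and 5 cells in the testes, held the highest Foxl2 of the named TO clusters at 14.3 and 10.1 CPM. The main Leydig-like cluster held 0.711 and 1.40 CPM. In the same small cluster Wnt4 stood at 105 and 113 CPM and Bmp2 at 51.9 and 51.4 CPM, against 6.98 and 7.31 CPM of Bmp2 in the main Leydig-like cluster of the TOs. Fst was at 16.6 and 11.8 CPM there, against 0.775 and 0.332 CPM. Its cells carried the steroidogenic genes Cyp11a1 (2326 and 1378 CPM) and Hsd3b1 (3483 and 2476 CPM). Of the other Leydig markers, Cyp17a1 stood at 385 and 1.16 CPM, against 1281 and 101 CPM in the main Leydig-like cluster of the TOs. Star stood at 51.1 and 8.96 CPM against 35.3 and 11.2 CPM. The cells held little of the Leydig hormone gene Insl3 (111 and 6.36 CPM) and little Sox9 (13.5 and 6.65 CPM). The Sertoli marker Rhox8 stood at 123 and 34.1 CPM, against 30.8 and 10.8 CPM in the main Leydig-like cluster of the TOs. Aard stood at 198 and 117 CPM against 193 and 163 CPM there. Cldn11 stood at 34.5 and 4.62 CPM against 28.9 and 5.32 CPM, and Wt1 at 9.90 and 3.47 CPM against 9.82 and 4.72 CPM. No Leydig marker was among the 10 leading genes of this small cluster. Within Sertoli-like cells, the shallow cluster of 149 and 25 TO cells held Wnt4 at 21.4 and 19.9 CPM, from 8 UMIs and a single UMI.

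Rspo1 was highest in TO cells that joined the cluster of endothelial-like cells. These 67 and 79 cells held 67.1 and 71.5 CPM of Rspo1, where the testis endothelial-like cells of that cluster held 0. They were left unnamed because 2 of the 6 endothelial markers were detected, where 3 were required, and they carried no Pecam1 UMI. They held Pax8, a transcription factor of the rete testis and other ducts, at 441 and 546 CPM, together with Epcam at 204 and 263 CPM. Epcam stood at 254 and 304 CPM in TO Sertoli-like cells. These unnamed cells also held the Sertoli markers Wt1 at 921 and 579 CPM, Cldn11 at 680 and 576 CPM and Sox9 at 286 and 240 CPM. Neither Foxl2 nor Fst was found in them.

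**Figure D2:**
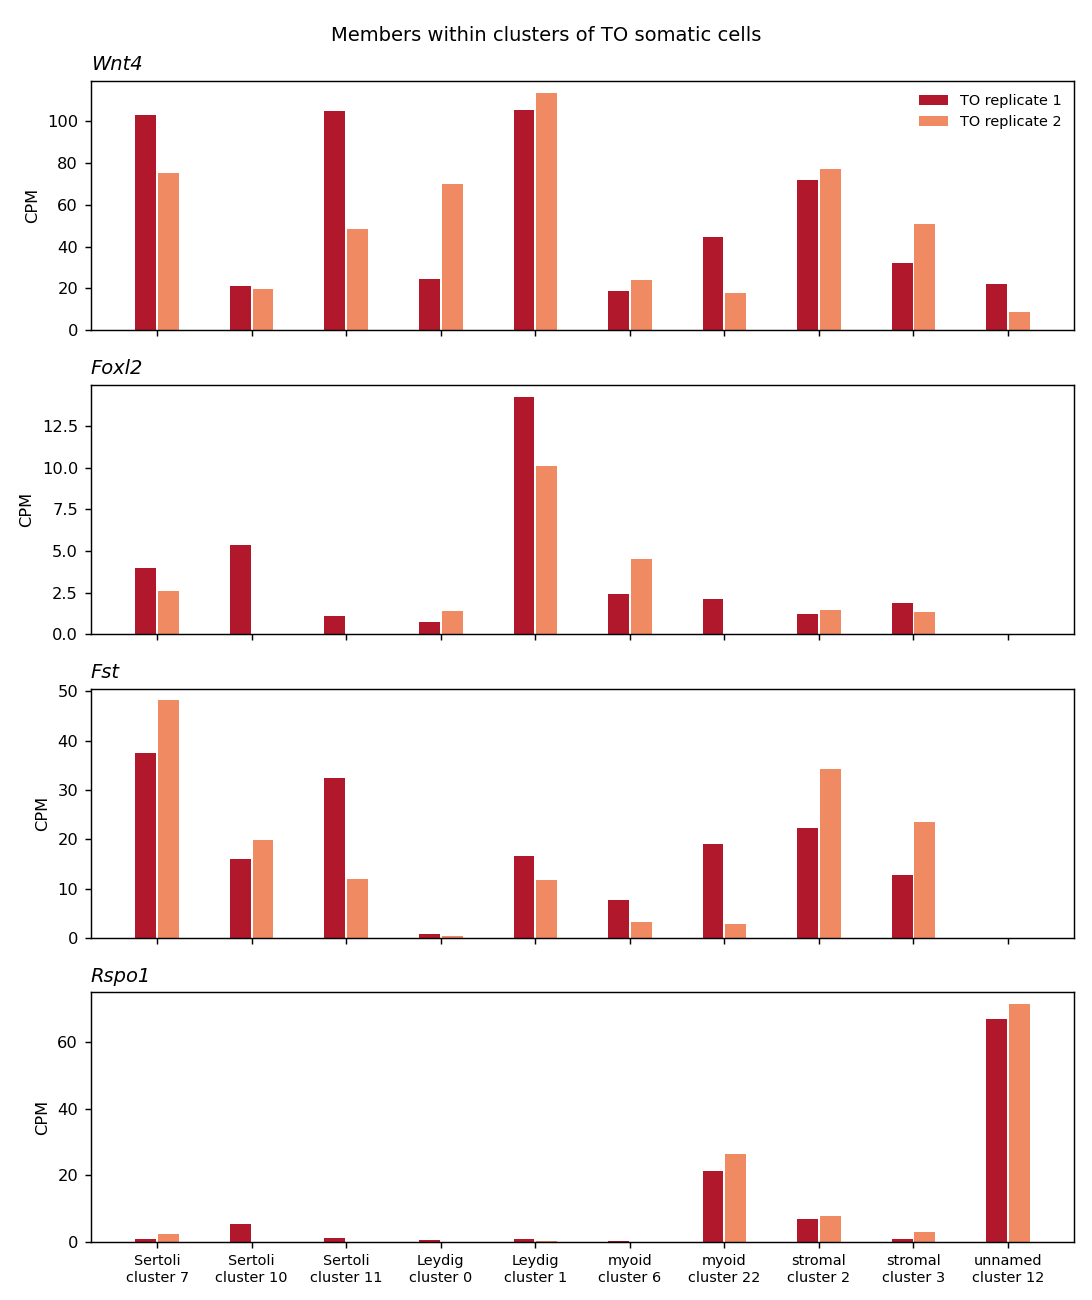
Levels of Wnt4, Foxl2, Fst and Rspo1 (CPM, linear axes from 0) in clusters of TO somatic cells, with a bar for each TO library. Foxl2 peaks in Leydig cluster 1 (14.3 and 10.1 CPM), Fst in Sertoli cluster 7 (37.5 and 48.2 CPM), and Rspo1 in the unnamed cells of cluster 12 (67.1 and 71.5 CPM).

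None of the few genes of the wider ovarian programme that could be tested was called in TO Sertoli-like cells. Of 12 further granulosa or ovarian-fate genes, 4 could be tested and 0 were called in either direction (median log2 fold change -1.01, against 0.02 over all genes tested). Over all genes tested 26.5% were called, and 0 of 4 cannot be told from that share. DESeq2 also called 0, edgeR without the filter on low counts called 1 (Cyp19a1), and 2 of the 4 had an unadjusted p under 0.05 in the edgeR test, as did 7475 of all 14230 genes. Esr2, the estrogen receptor of granulosa cells, stood at 3.35 and 5.01 CPM in TOs and 1.94 and 2.65 CPM in testes (1.01, standard error 0.58, adjusted p = 0.200). Cyp19a1, the aromatase gene, stood at 1.495 and 0.136 CPM against 6.196 and 2.65 CPM (-2.28, standard error 0.86, adjusted p = 0.0687). It was also among the 10 leading genes of a spermatocyte-like cluster of 10 and 0 TO cells and 138 and 187 testis cells. The part of germ-cell RNA in its testis Sertoli-like values was not tested. The other 8, among them Lgr5 and Nr5a2, had too few UMIs to be tested. Nr5a2, a nuclear receptor of granulosa cells, had 24 and 6 UMIs in TOs and none in testes.

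Testis-fate genes showed no common direction. Of 13 such genes, 12 were tested, 1 was called higher and 1 lower (median log2 fold change 0.01). Over all genes tested 7.88% were called higher and 18.6% lower. Sox9, Wt1 and Amh of this list are also markers by which the Sertoli-like clusters were named. Their values here are therefore not independent of that naming. Sox9 was higher, at 479 and 568 CPM in TOs against 216 and 311 CPM in testes (1.11, standard error 0.23, adjusted p = 0.00695, edgeR). Ptgds, which makes prostaglandin D2, was lower, at 19.5 and 13.8 CPM against 127 and 331 CPM (-3.63, standard error 0.43, adjusted p = 0.000700, edgeR). Dmrt1, which represses the ovarian programme in Sertoli cells, had a log2 fold change of -0.01 (standard error 0.16). The Sox9 call was lost without TO replicate 2 and without testis replicate 1.

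Among the machinery of WNT signalling, Wls moved with Wnt4 in Sertoli-like cells. Wls carries WNT ligands to the cell surface for secretion. It stood at 102 and 73.0 CPM in TO Sertoli-like cells and at 3.49 and 0.885 CPM in testis Sertoli-like cells, a log2 fold change of 5.13 (standard error 0.40, adjusted p = 0.000132, edgeR). Within the largest Sertoli-like cluster Wls stood at 103 and 75.7 CPM in TOs and at 3.99 and 0 CPM in testes. In the other somatic types Wls was present in both conditions, between 97.0 and 170 CPM in TOs and between 60.9 and 102 CPM in testes. Lgr4, a receptor for R-spondins, stood at 187 and 150 CPM against 73.2 and 75.2 CPM in Sertoli-like cells (1.29, standard error 0.17, adjusted p = 0.00111, edgeR). Of 10 machinery genes, 7 were tested, of which 2 were called higher and 3 lower (median log2 fold change 0.51), where 7.88% and 18.6% of all genes tested were. Those lower were Porcn, which acylates WNT ligands (-1.64), the co-receptor gene Lrp5 (-2.95) and Lgr6 (-3.25).

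**Figure D3:**
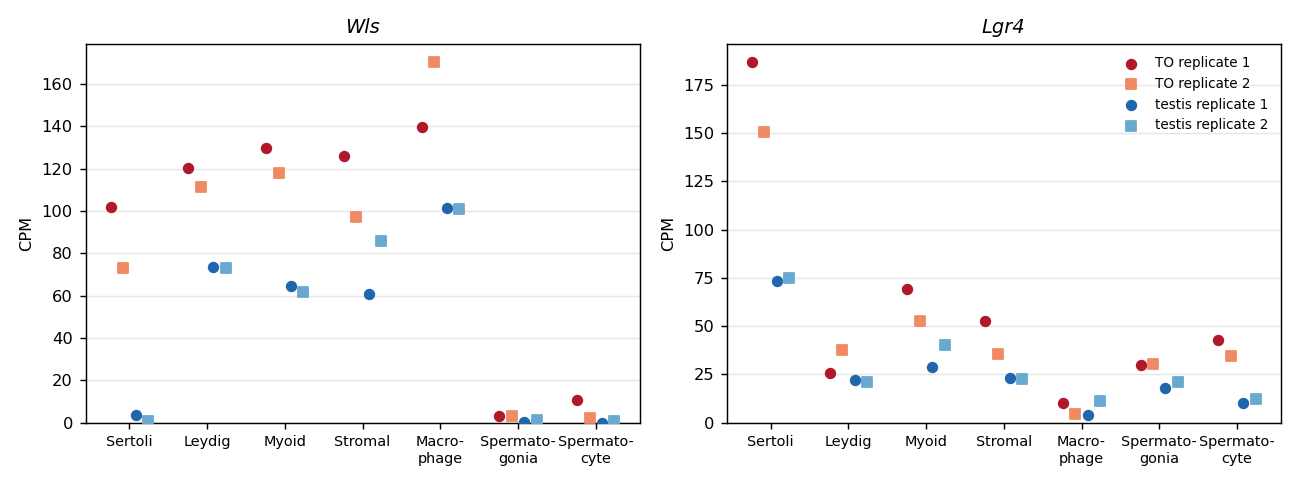
Levels of Wls and Lgr4 (CPM, linear axes from 0) in 7 cell types, with a point for the summed cells of each library. Wls is at 3.49 and 0.885 CPM in testis Sertoli-like cells, below all other somatic types, and at 102 and 73.0 CPM in TO Sertoli-like cells.

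Genes that commonly respond to canonical WNT signalling gave no common direction in Sertoli-like cells. Of 13 genes, 9 were tested, 1 was called higher and 2 lower (median log2 fold change -0.07), where 7.88% and 18.6% of all genes tested were. Axin2, a feedback inhibitor often used as a readout, stood at 9.04 and 12.9 CPM in TOs and at 13.9 and 9.73 CPM in testes, so that the groups overlapped (-0.07, standard error 0.38). Wif1, a secreted WNT inhibitor, was higher, at 10.0 and 11.4 CPM against 1.94 and 3.54 CPM (2.19, adjusted p = 0.00862, edgeR). Lef1, a transcription factor of the pathway, was lower (-3.15, adjusted p = 0.00530, edgeR) and so was Apcdd1 (-3.42, adjusted p = 0.00473, edgeR). Both rested on few UMIs, with 15 and 3 of Lef1 in TOs against 24 and 6 in testes. Apcdd1 had 5 and 4 UMIs against 10 and 8. The part of germ-cell RNA in their testis Sertoli-like values was not tested. Sp5 had 55 and 96 UMIs in TOs and none in testes, which placed it at least 8.72-fold higher in TOs, and was not called (adjusted p = 0.0174, edgeR). DESeq2 called Sp5 and not Wif1, and edgeR without the filter on low counts called Sp5 and Tcf7 besides Lef1, Apcdd1 and Wif1. The median of the list was -0.07 also with Sp5 at that bound. None of the 13 was called by edgeR without TO replicate 2 or without testis replicate 1.

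Of 16 genes of activin and BMP signalling, 12 were tested, 1 was called higher and 0 lower (median log2 fold change 0.43). Among all genes tested 7.88% were called higher and 18.6% lower. Fstl3, a follistatin-like inhibitor of activins, was higher, at 78.1 and 72.1 CPM against 39.5 and 37.2 CPM (1.06, standard error 0.18, adjusted p = 0.00300, edgeR). Inhbb, which encodes the activin B subunit, had a log2 fold change of -0.03 (standard error 0.17). Of 7 further Runx and Irx genes and partners, 2 were tested and 1 was called, where 26.5% of all genes tested were. It was Cbfb, the common partner of the RUNX proteins, at 99.7 and 96.1 CPM against 37.2 and 37.2 CPM (1.496, standard error 0.17, adjusted p = 0.000621, edgeR). Of 6 genes of the rete epithelium, Epcam was the single gene tested and was higher (2.93, adjusted p = 0.000153, edgeR). Pax8 had 1 UMI in each TO library, and Cdh1 had 1 and 1 UMIs in TOs and 6 and 1 in testes. Epcam was not particular to epithelium here, as spermatogonia-like cells held 297 and 399 CPM in TOs and 287 and 400 CPM in testes.

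**Figure D4:**
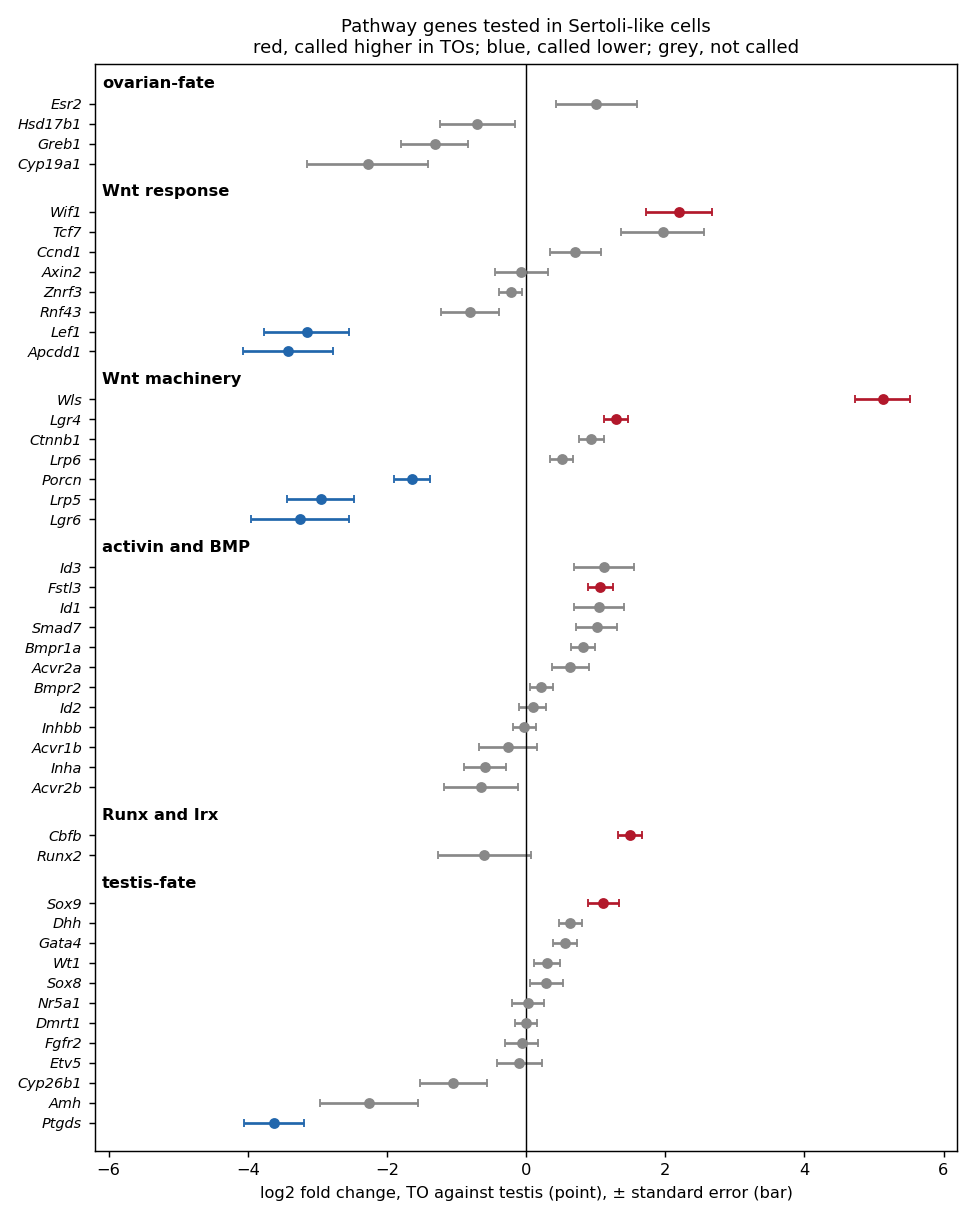
Log2 fold changes between TO and testis Sertoli-like cells (points) with their standard errors (bars) for the pathway genes tested, by list. Red marks genes called higher in TOs, such as Wls (5.13), blue those called lower, such as Ptgds (-3.63), and grey those not called; Sp5, which has no UMI in testes, is left out.

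The genes most like Wnt4 were sought over the 28 sums of 7 cell types and 4 libraries, among 13643 genes of at least 20 CPM in a sum. By Pearson correlation of log2(CPM + 1) they were Shisa4 (0.89), Eda2r (0.88), Atf4 (0.88), Spry2 (0.87) and Hspb8 (0.87). Among the members, Fst had a correlation of 0.47 with Wnt4, Bmp2 of 0.13 and Runx1 of -0.07. These values are descriptive, as the 28 sums share libraries.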

How the data were processed

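Per the submitters' processing notes, the authors aligned reads to mm10 and counted UMIs with Cell Ranger 7.1.0. What the authors deposited are unnormalized UMI counts of each gene in each barcode, for 14643 and 12491 TO barcodes and 12179 and 11826 testis barcodes (total counts of 74988295 to 119966959 per library). The members and gene lists were chosen with earlier results of these data known. Gene positions came from GENCODE vM21, which held 32158 of the 32285 gene IDs.

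Barcodes with the highest Scrublet scores (scanpy 1.11.5) were removed as doublets, 0.8% for every 1000 barcodes. A cell was kept if it had between 1000 and 5000 genes, no more than 20000 UMIs and a mitochondrial share up to 10%. Kept cells were scaled to 10000 UMIs and joined by Harmony, rewritten here, over 30 components of 2000 variable genes. Leiden clusters (resolution 1, 20 neighbours) were named from fixed markers with at least 3 markers detected. A rule that left a cluster led by Rhox5 and Tsx unnamed where it scored as spermatids was added after clusters were seen.

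Raw UMIs were summed per library and cell type and tested with edgeR 4.0.16 (quasi-likelihood, TMM, filterByExpr, Benjamini-Hochberg over all genes tested). DESeq2 1.42.0 was an alternative. No interaction is given where a cell type had 0 UMIs in a group. An exact permutation test of 2 against 2 libraries cannot go below p = 0.333. Zero groups were set to a floor of 3 UMIs over the group, and intervals and floors cover counting error only. The tests were checked on simulated counts. Genes named were the members, called list genes (up to 6 a list) and the 5 genes most like Wnt4, and others are named as values beside them. The strand setting of the counting is not given in the sources used here, so reads of genes that overlap on opposite strands may be mixed.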

Additional observations from a re-analysis of the deposited data

Results flagged for a closer look

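The change of Fst between TOs and testes differed between Sertoli-like and stromal-like cells by 4.56 on the log2 scale (adjusted p = 6.53e-06, edgeR interaction term). Fst was higher in both TO libraries than in both testis libraries in Sertoli-like cells, and lower in both in stromal-like cells.

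The change of Runx1 differed between Sertoli-like and macrophage-like cells by 2.03 on the log2 scale (adjusted p = 0.00908, edgeR interaction term). Its testis Sertoli level rested on 5 and 0 UMIs, and the difference was lost without TO replicate 1 and without testis replicate 2.

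Rspo1 stood at 67.1 and 71.5 CPM in the 67 and 79 TO cells that joined the endothelial-like cluster. No comparison above uses these cells, and the testis cells of that cluster had no Rspo1 UMI.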

How the results depend on the processing

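In Sertoli-like cells 3767 genes were called, and leaving out 1 library at a time gave 2591 to 3841. Without the filter on low counts 5714 of 23954 genes tested were called, with 3 members (Foxl2, Runx1 and Fst), 1 ovarian-fate gene and 5 WNT response genes. In that fit 8.86% of all genes were called higher in TOs. The counts of members and list genes in this paragraph are not read as results about them. With the sums thinned to the smallest, 2470 genes, 0 WNT response genes and 1 testis-fate gene were called. Leaving out genes at 5 times or more in other cells, and keeping doublets, each left 1 WNT response and 1 testis-fate gene, and naming each cell by its own marker score left 0 and 1. Without 1 library, 1 to 2 members, 0 ovarian-fate, 0 to 2 WNT response and 1 to 3 testis-fate genes were called. Outside Sertoli-like cells, the 2 calls of members became 1 with RLE size factors and 1 to 4 without 1 library. The 2 differences between cell types became 1 to 2 without 1 library, and the difference for Fst against Leydig-like cells turned to 0.44 without testis replicate 1 (range without 1 library -1.19 to 0.44). Fst in Sertoli-like cells kept its direction and call under all alternatives, with log2 fold changes from 3.07 to 3.65.

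Same-numbered libraries are not stated to share animals or a batch, and over 2 pairs their deviations had a correlation of 0.10. With a replicate block, 3 members (Fst, Runx1 with adjusted p = 2.72e-05 and Foxl2 with adjusted p = 0.000595, edgeR), 1 ovarian-fate gene and 5 WNT response genes were called in Sertoli-like cells, where 33.3% of all genes were. Runx1 and Foxl2 again passed the filter on low counts only through the TO libraries. Their calls with the block are therefore a description of the counts and not support for a rise. In the other types 7 pairs of member and type were called, where 11.6% (Leydig-like) to 31.3% (myoid-like) of genes were. The block could not be separated from the library terms in the comparison of cell types.

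Without thinning, the mean shares of TO Sertoli-like cells with a UMI were 31.9% for Wnt4, 21.0% for Fst, 6.80% for Runx1, 2.02% for Foxl2, 1.19% for Rspo1, 0.306% for Irx3 and 0.237% for Bmp2, against 9.84%, 4.77%, 1.33%, 0.551%, 0.173%, 0% and 0.0695% with it. Adding the unnamed cells of testis replicate 2, chosen after seeing the data, left 1 member called. Testis replicate 2 has 143 Sertoli-like cells, which limits what can be said of low levels there. The causes were not tested.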

Other observations

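Greb1, a hormone-responsive gene of the ovarian-fate list, was higher in Leydig-like than in Sertoli-like cells. In the main Leydig-like cluster it stood at 184 and 151 CPM in TOs and at 25.1 and 9.45 CPM in testes, and in the small Leydig-like cluster of the TOs at 233 and 167 CPM. In Sertoli-like cells it stood at 1.99 and 2.98 CPM in TOs and at 6.196 and 7.08 CPM in testes. The other granulosa genes were low in the small Leydig-like cluster, with Esr2 at 1 UMI in TO replicate 1 and none in TO replicate 2, and Cyp19a1 at 3 and 1 UMIs. These cluster values were not tested.

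Barcodes that were left out held further Foxl2. Testis replicate 2 had 13 Foxl2 UMIs over all its barcodes and 1 over the cells kept, whereas testis replicate 1 had 0 in both.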
